A study of Homo sapiens with 60 samples.

Results

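The genes that encode the protein part of the mitochondrial ribosome were followed in A549 cells, an established human lung adenocarcinoma line, after 24 h with plant extracts, a kinase inhibitor or vehicle. Members were the protein-coding genes of the count table whose symbol is MRPL or MRPS followed by a number. There were 78 of them among 60675 genes in the table, 49 named for the large subunit (MRPL) and 29 for the small subunit (MRPS), and another 86 symbols of that form were left out because the annotation does not class them as protein-coding. Each of the 78 passed the filter on low counts, as did 17129 genes in all. The rule uses the symbol and the annotated type and no measured value, though it was chosen with earlier results of these data known.

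The groups held 3 libraries each. The doses of the hot water extract of Coptidis Rhizoma (CR) were 5.2, 26 and 130 µg/mL. Those of Scutellariae Radix (SR) were 9.2, 46 and 230 µg/mL, and those of Zizyphi Fructus (ZF), Zingiberis Rhizoma Recens (ZRR), Zingiberis Rhizoma (ZR) and Pinelliae Tuber (PT) were 20, 100 and 500 µg/mL. These doses are called low, medium and high. Wortmannin, an inhibitor of phosphoinositide 3-kinases, was given at 10 µM as the positive control. The vehicle is given as 0.1% DMSO in the sample labels and as 2% DMSO in the design text. The first part of the sample code is A1 for vehicle, 1 for wortmannin, 2 for ZRR and ZR, 3 for PT and SR, and 4 for CR and ZF. No treated group carries the code of the vehicle. A set of libraries and a treatment thus cannot be told apart in any comparison with vehicle, while CR and ZF carry the same number. No label says that the 3 libraries of a group came from separate cultures, so the p-values reflect the spread of these libraries, which may be technical. In such bulk samples fewer cells and less RNA per cell cannot be told apart.

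The mitochondrial ribosome is built in the mitochondrial matrix from 2 rRNAs encoded by mitochondrial DNA and from proteins that are encoded in the nucleus, made in the cytosol and imported. It translates the mRNAs of mitochondrial DNA, whose products are core subunits of the respiratory chain and of the ATP synthase. Compared with bacterial ribosomes it has lost RNA and gained proteins, many of them specific to mitochondria. The names do not map perfectly to the particle. MRPS30 and MRPS18A sit in the large subunit in structures of the mammalian ribosome, and MRPS36 is now known as a subunit of the alpha-ketoglutarate dehydrogenase complex. They are counted here by name.

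Libraries held between 17420400 and 36479600 estimated counts. The cell line label fitted its markers, since 7 of 7 epithelial and A549 genes were detected with a summed level of 13000 to 17800 counts scaled by library size (CPM), against at most 3.76 CPM for 4 blood genes, 1.24 CPM for 3 fibroblast genes and 0.353 CPM for 3 endothelial genes. PTPRC, CD3E, DCN, VWF and PECAM1 had a median of 0 CPM. Member transcripts are short, with a median of 1516 bases against 2969 bases for all tested genes, and 69 of 78 members were shorter than that median. The dependence of counts on transcript length differed between libraries. Its slope, in log2 CPM per doubling of length, averaged 0.97 in wortmannin, 0.861 in CR low, 0.89 in CR medium, 0.927 in CR high, 0.892 in ZF high and 0.955 in vehicle libraries. Single libraries weighed on some means. ZF high replicate 2 had a slope of 0.798, against 0.941 and 0.937 in replicates 1 and 3. CR low replicate 3 had 0.815, against 0.882 and 0.887. Both are among the 5 libraries of lowest slope, and calls changed when either was left out, as given below. Each comparison was therefore also fitted after the length trend of each library had been removed, and these values are called length-normalised. Where the length trend comes from was not tested.

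Levels between genes are given as CPM per kilobase of transcript in the vehicle libraries. MRPL12, the stalk protein that contacts translation factors, was highest with 138.5 ± 4.8 CPM per kilobase (SD, n = 3). MRPL51 followed with 128 ± 5.12, and MRPS12, a protein of the decoding centre, with 118 ± 5.07. The lowest values were 5.77 ± 0.148 for MRPL42, 8.497 ± 0.301 for MRPS31 and 8.94 ± 0.668 for MRPS33. The value of MRPL42 rests on an annotated transcript of 15582 bases, the longest of any member. That of MRPS33 rests on a long annotated transcript as well, of 4241 bases, and its mean in vehicle was 37.9 CPM before division by length.

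The summed level of each subunit was set against the other in every library. In CR high the large subunit genes summed to 2573 ± 43.0 CPM and the small subunit genes to 1814 ± 21.3 CPM, against 2562 ± 78.3 and 1744 ± 41.9 CPM in vehicle (SD, n = 3 each). The ratio of large to small was 1.424, 1.407 and 1.422 in the CR high libraries and 1.467, 1.457 and 1.482 in the vehicle libraries. The ratios did not overlap, and the mean of CR high, 1.418 ± 0.00929, was the lowest of the 20 groups. By dose the mean ratio was 1.471 ± 0.0146 in CR low, 1.432 ± 0.0114 in CR medium and 1.418 in CR high, so CR low lay at the vehicle mean of 1.469 ± 0.0126 and the other doses lay below it. Wortmannin had a mean ratio of 1.440 ± 0.0118. A ratio below every vehicle library was not particular to CR. It was also seen in all libraries of wortmannin, ZRR high, ZR high and SR high. The means of these extract groups were 1.437, 1.445 and 1.447, while those of PT high and ZF high were 1.473 and 1.482. With the length trend removed the means were 1.419 in CR high and 1.474 in vehicle.  No test was run on these sums.

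**Figure D1:**
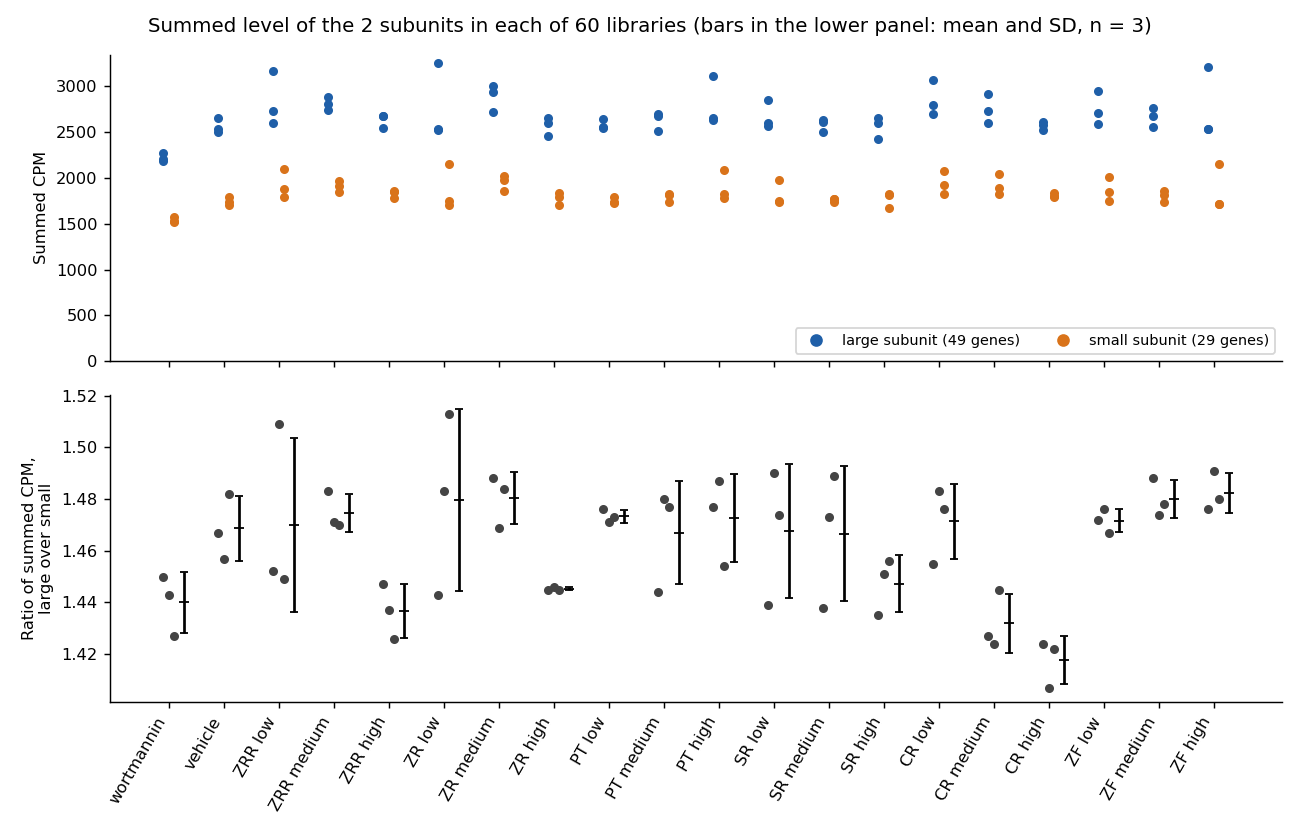
Summed CPM of the 49 large subunit and 29 small subunit genes (upper panel) and the ratio of the sums (lower panel, axis not from 0) in each of 60 libraries, with the mean and SD of 3 libraries beside each group. The wortmannin libraries are lowest in both sums, and the CR high libraries have the lowest mean ratio, 1.418.

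With wortmannin a large share of the genes was lower than with vehicle and none was higher. The 2 groups differ in sample code as well as in treatment. Of the 78 members 27 fell, 18 of 49 in the large and 9 of 29 in the small subunit, and 72 of 78 had a fold change below 0 (edgeR, adjusted p under 0.05). That is 34.6% of members, against 25.3% of all tested genes, where 13.4% rose and 11.9% fell. The median log2 fold change was -0.21 for large and -0.13 for small subunit genes, against 0.01 for all genes. With the length trend removed 45 members fell, 32 large and 13 small, and 0 rose, against 32.1% of all genes called, 15.5% up and 16.6% down. Of the 27 calls 25 were kept.

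MRPS10, a protein of the small subunit head, had the smallest p. It measured 39.6, 41.2 and 37.2 CPM with wortmannin and 53.7, 52.7 and 54.9 CPM with vehicle. The libraries of the 2 groups were clearly apart, and the log2 fold change was -0.45 ± 0.06 (SE, edgeR adjusted p = 2.98e-08). MRPL49, a large subunit protein specific to mitochondria, measured 55.3, 57.3 and 56.6 CPM with wortmannin against 70.4, 68.0 and 69.7 CPM with vehicle (log2 fold change -0.30 ± 0.04, edgeR adjusted p = 7.05e-08). MRPL3, which lies close to the peptidyl transferase centre, averaged 94.9 ± 3.32 CPM with wortmannin and 120.6 ± 4.95 CPM with vehicle (SD, n = 3 each). Its log2 fold change was -0.34 ± 0.05 (edgeR adjusted p = 4.07e-07).

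The deepest fall in the group was that of MRPL58, a peptidyl-tRNA hydrolase built into the large subunit that helps to release stalled chains. It measured 29.2, 26.1 and 26.4 CPM with wortmannin against 37.1, 35.1 and 42.7 CPM with vehicle (log2 fold change -0.49 ± 0.11, edgeR adjusted p = 0.00048). The MRPS18 paralogues fell together, with log2 fold changes of -0.43 ± 0.07 for MRPS18B, -0.37 ± 0.11 for MRPS18C and -0.28 ± 0.09 for MRPS18A. MRPL10, which anchors the stalk, fell by 0.29 on the log2 scale. MRPS30 fell by 0.13 on the log2 scale, and that call was lost with the length trend removed (edgeR adjusted p = 0.0772). MRPL12, MRPL41, MRPL44, MRPS12, MRPS7, MRPS22 and MRPS36 did not pass the test as counted, with log2 fold changes of -0.27, 0.12, -0.15, -0.29, -0.24, -0.10 and -0.10. Of these MRPL12, MRPL44, MRPS12 and MRPS7 passed it in the length-normalised fit (edgeR adjusted p = 6.34e-05, 0.019, 0.000391 and 0.000923).

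Outside wortmannin, CR and high-dose SR, no member passed the edgeR test as counted with the filter on low counts. At the high doses of ZRR, ZR, PT and ZF the count was 0 by edgeR and 0 by DESeq2, with 3, 2, 14 and 9 members at an unadjusted p under 0.05. The share of all tested genes called in these comparisons, at an adjusted p under 0.05, was 4.03%, 5.35%, 1.40% and 0.00584%. At an unadjusted p the share of all genes is not given, so counts at that threshold have no matching background. Over the 10 medium and low doses of ZRR, ZR, PT, SR and ZF the summed count was 0 by edgeR and 5 by DESeq2, with 103 at an unadjusted p under 0.05 and 0.137% of all gene tests called. Without the filter on low counts 2, 17 and 7 members were called, all higher, for high-dose ZRR, PT and ZF and 80 over the 10 doses. Without the 5 libraries of lowest length slope 53 were called over the 10 doses. The share of all genes called in these fits is not given, so these counts cannot be set against a background. Medians were nevertheless above 0 in most of these groups, up to 0.19 in ZR medium and 0.15 in ZRR low. Across all tested genes, the fold change in these 2 groups ran against transcript length, with Spearman's rho of -0.46 each, given as a description since all genes share the libraries. With the length trend removed the medians of ZR medium and ZRR low were 0.03 and 0.02.

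**Figure D2:**
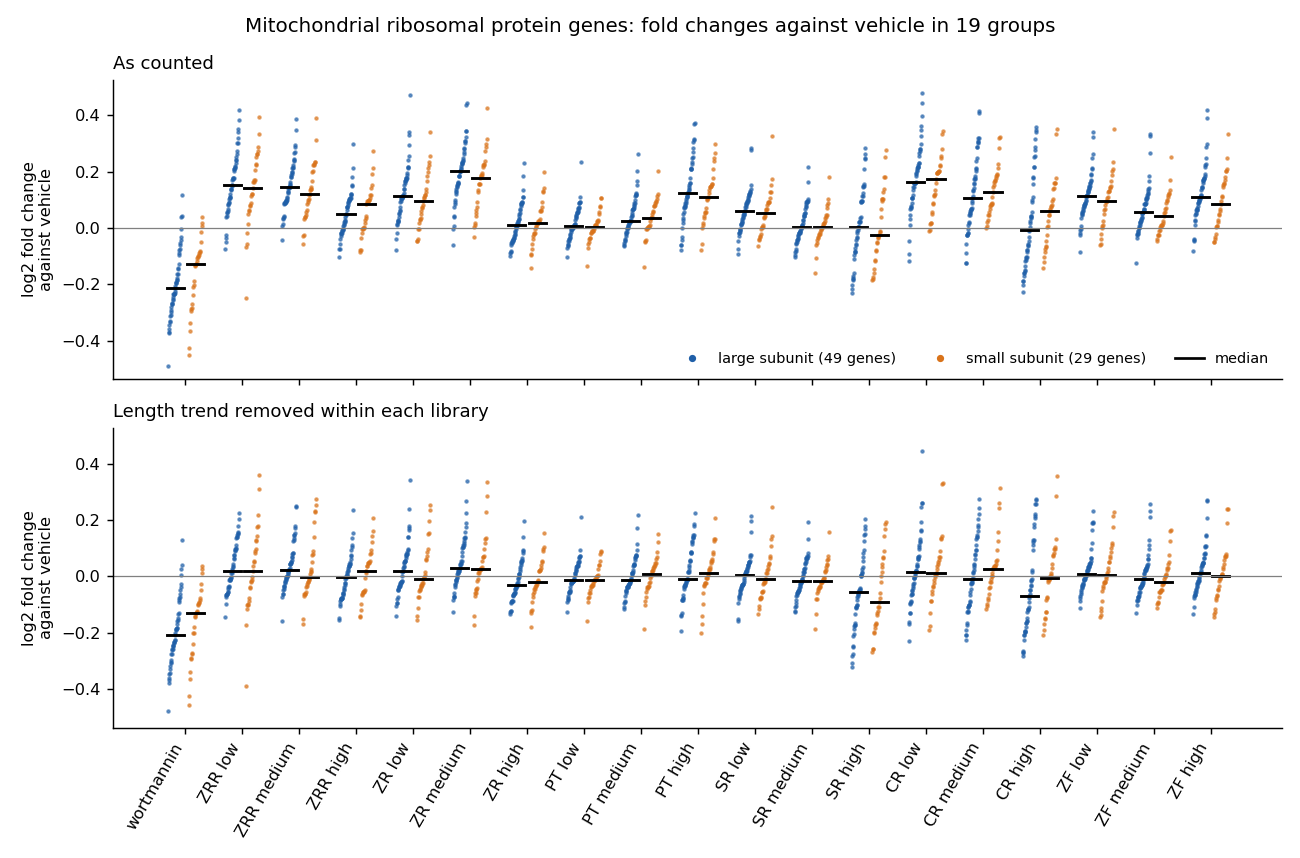
log2 fold change against vehicle of each large subunit (blue) and small subunit (orange) gene in 19 groups, as counted (upper panel) and with the length trend of each library removed (lower panel), with the median as a black line. Medians above 0 in the low and medium doses move to about 0 in the lower panel, while the wortmannin medians stay at -0.21 and -0.13.

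Coptidis Rhizoma is a berberine-rich rhizome. At its high dose 9 members rose and 5 fell against vehicle, which is 17.9% of members against 35.1% of all tested genes, 18.5% up and 16.7% down. The median log2 fold change was -0.01 in the large and 0.06 in the small subunit, against 0.01 for all genes. The 5 that fell were large subunit genes, and of the 9 that rose 6 were large and 3 small subunit genes. In the length-normalised fit 11 rose and 20 fell, 17 of the 20 being large subunit genes, and the share called was 39.7% against 40.1% of all genes, 19.7% up and 20.4% down. The 14 genes called as counted were kept there in the same direction. With the length slope as a covariate 14 rose and 22 fell. The share of all genes called is given here and below for the main and length-normalised fits only. Counts from the other fits thus have no background beside them. The count was 6 without vehicle replicate 1, 8 without vehicle replicate 2, 8 without CR high replicate 1 and 7 without CR high replicate 3.

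MRPS10 (chr6:42206801-42217865, minus strand) rose at each dose. It measured 63.6, 62.6 and 65.2 CPM in CR low, 70.7, 65.9 and 64.5 CPM in CR medium, and 65.8, 70.8 and 66.6 CPM in CR high, with 53.7, 52.7 and 54.9 CPM in vehicle. Every CR library was above every vehicle library. The log2 fold changes against vehicle were 0.25 ± 0.06, 0.32 ± 0.06 and 0.34 ± 0.06 from the low to the high dose (edgeR adjusted p = 0.00183, 2.03e-05 and 3.29e-06), while the same gene fell with wortmannin. The call held in 13 of 13 alternatives at each dose.

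MRPL45 (chr17:38297023-38323218, plus strand) tethers the ribosome to the inner membrane near the exit of the nascent chain. It measured 74.5, 73.3 and 72.6 CPM in CR high and 58.96, 57.8 and 60.5 CPM in vehicle, with no overlap (log2 fold change 0.32 ± 0.06, edgeR adjusted p = 4.82e-05). MRPL24, a protein near the same exit, measured 98.1, 96.3 and 102.5 CPM in CR high and 73.3, 78.1 and 80.4 CPM in vehicle. Its log2 fold change was 0.36 ± 0.10 as counted and 0.28 length-normalised.

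The other members that rose at the high dose were MRPS33 (log2 fold change 0.35 ± 0.12), MRPL52 (0.35 ± 0.11), MRPL58 (0.34 ± 0.10), MRPL2 (0.29 ± 0.10), MRPL10 (0.18 ± 0.05) and MRPS16 (0.16 ± 0.05). MRPL2 contributes to the peptidyl transferase centre. MRPS16, with a mean of 138 CPM, overlaps DNAJC9 on the same strand, with a mean of 67.6 CPM, so reads of that pair may be shared. MRPL58, MRPL2, MRPL10 and MRPL52 were lower with wortmannin than with vehicle, with log2 fold changes of -0.49, -0.37, -0.29 and -0.34. Both sets of values share the vehicle libraries. MRPS33 lost its call without CR high replicate 1, without CR high replicate 3, without vehicle replicate 1 and without vehicle replicate 2 (highest edgeR adjusted p = 0.0955). Among the remaining genes chosen by role, MRPL41, MRPS18C, MRPS36, MRPS18B and MRPS22 had log2 fold changes of 0.28, 0.16, 0.16, 0.14 and 0.14 that did not pass the test. MRPL12, MRPS12, MRPS7, MRPL3, MRPS18A and MRPS30 lay between -0.08 and -0.02 and did not pass it as counted, while MRPL12 and MRPL3 were lower in the length-normalised fit (edgeR adjusted p = 0.0118 and 0.0185).

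**Figure D3:**
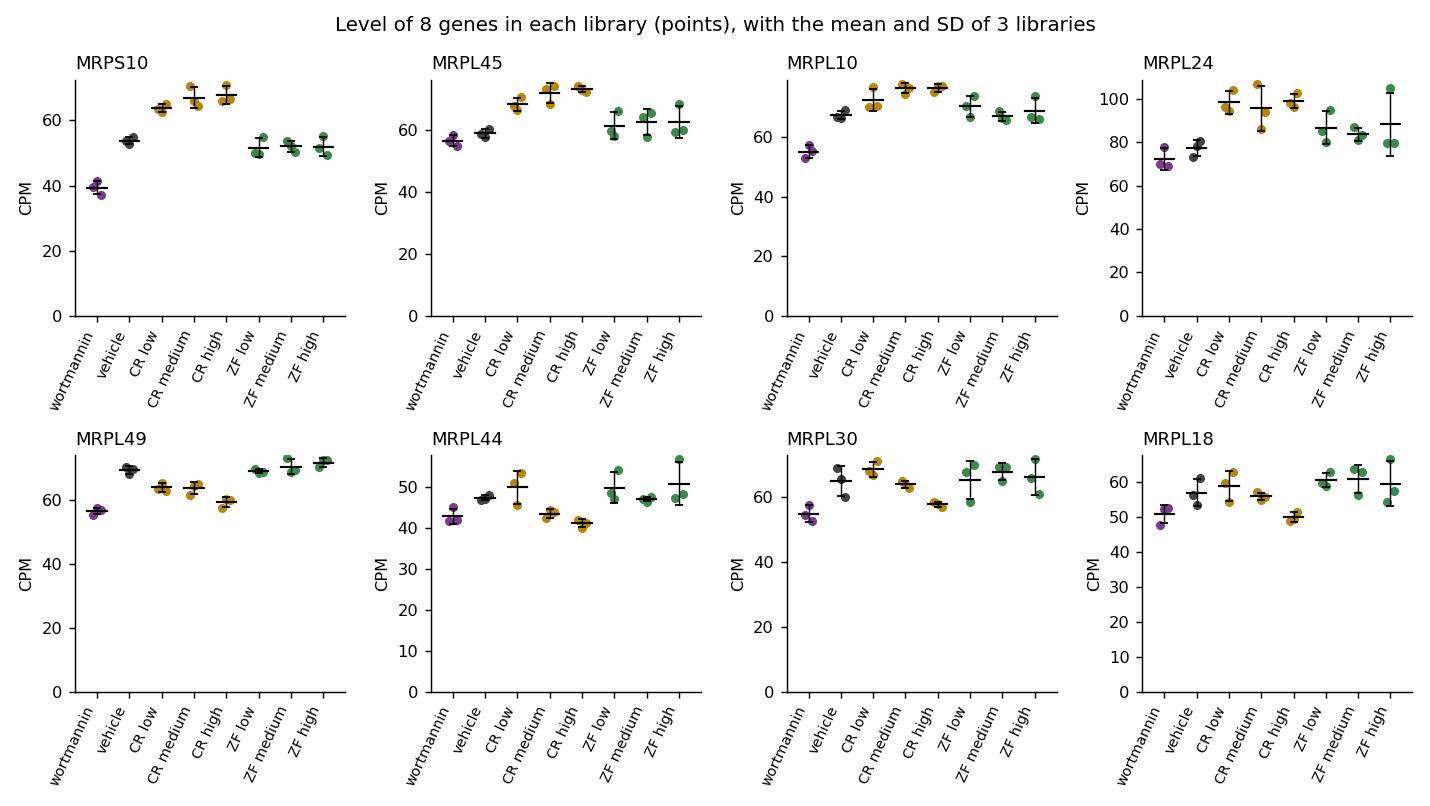
CPM of 8 members in each library of 8 groups, with the mean and SD of 3 libraries in black. MRPS10, MRPL45, MRPL10 and MRPL24 are higher in CR high than in vehicle, and MRPL49, MRPL44, MRPL30 and MRPL18 are lower.

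MRPL49 (chr11:65122183-65127371, plus strand) was the member with the smallest p among those that fell. It measured 63.5, 65.4 and 62.8 CPM in CR low, 61.4, 64.4 and 64.9 CPM in CR medium, and 57.4, 60.4 and 59.8 CPM in CR high, with 70.4, 68.0 and 69.7 CPM in vehicle. Each CR library was below each vehicle library, and the high dose was lowest. The log2 fold changes from the low to the high dose were -0.12 ± 0.04, -0.13 ± 0.04 and -0.23 ± 0.04 (edgeR adjusted p = 0.0323, 0.0153 and 5.22e-06). The call held in 13 of 13 alternatives at the high dose, 9 of 13 at the medium dose and 6 of 13 at the low dose. The gene overlaps FAU, an abundant gene on the other strand with a mean of 192 CPM, and the strand setting of the counting is not given, so reads of the pair may be shared.

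MRPL44, a protein with a ribonuclease III-like fold, measured 41.9, 40.0 and 41.2 CPM in CR high and 46.8, 47.1 and 48.0 CPM in vehicle (log2 fold change -0.20 ± 0.08, edgeR adjusted p = 0.0452). MRPL30 averaged 57.6 ± 0.809 CPM in CR high and 64.8 ± 4.51 CPM in vehicle, and MRPL18 averaged 49.9 ± 1.38 CPM in CR high and 56.9 ± 3.84 CPM in vehicle (SD, n = 3 each). MRPL30, MRPL18 and MRPL35 had log2 fold changes of -0.17 ± 0.06, -0.19 ± 0.07 and -0.10 ± 0.04. MRPL44 lost its call when any 1 of the 6 libraries was left out (edgeR adjusted p between 0.0799 and 0.127), and so did MRPL35. Length-normalised, the log2 fold change of MRPL44 was -0.26 (edgeR adjusted p = 2.29e-05). MRPL30 lost its call without CR high replicate 3, without vehicle replicate 1 and without vehicle replicate 2 (highest edgeR adjusted p = 0.176).

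Promoter windows of the members were searched for short motifs. The windows run from 250 bases before to 50 bases after a transcript start (RefSeq, GRCh38.p14) and were found for 69 of 78 members. MRPL2, MRPL10, MRPL13, MRPL15, MRPL21, MRPL23, MRPL35, MRPS28 and MRPS36 had no entry. Of the 69 members 30 held CCGGAAG, the core of sites for ETS factors such as the GABP complex, which is 43.5% against 16.7% of 15234 protein-coding genes with a window. AAGATGG, the core of the YY1 site that often spans the start codon, was held by 24 of 69, which is 34.8% against 7.98%. Either was held by 45 of 69 members (65.2% against 22.9%), 28 of 42 large and 17 of 27 small subunit genes, so not all members share them. The 15234 genes were not limited to those that passed the filter on low counts, as every member did. Shares among expressed genes alone were not computed. The palindromic NRF1-type motif was held by 9 of 69 (13% against 9.76%), the E-box CACGTG by 9 of 69 (13% against 11%) and the TATA box TATAAA by 3 of 69 (4.35% against 12.4%). Both strands were searched, a gene counted once if any of its windows held the motif, and no overlap between motifs was removed. A match is a run of letters and not a measured site. The windows of 2 members that rose and 2 that fell with CR are shown, with CCGGAAG and AAGATGG or their complements in capitals. They lie at chr6:42217812-42218111 (minus strand) for MRPS10, chr17:38296918-38297217 (plus strand) for MRPL45, chr11:65122071-65122370 (plus strand) for MRPL49 and chr2:99180934-99181233 (plus strand) for MRPL30.
MRPS10: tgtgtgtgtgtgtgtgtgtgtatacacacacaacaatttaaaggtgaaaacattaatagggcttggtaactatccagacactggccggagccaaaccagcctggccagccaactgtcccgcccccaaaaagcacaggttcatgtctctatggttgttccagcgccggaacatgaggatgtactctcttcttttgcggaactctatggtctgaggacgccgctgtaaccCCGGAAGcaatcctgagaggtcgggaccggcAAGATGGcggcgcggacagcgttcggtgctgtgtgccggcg
MRPL45: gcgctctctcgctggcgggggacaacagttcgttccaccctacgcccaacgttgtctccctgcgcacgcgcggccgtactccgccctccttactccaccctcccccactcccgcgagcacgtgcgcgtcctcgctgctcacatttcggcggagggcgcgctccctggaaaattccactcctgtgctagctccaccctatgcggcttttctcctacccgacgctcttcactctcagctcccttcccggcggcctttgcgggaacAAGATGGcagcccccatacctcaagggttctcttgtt
MRPL49: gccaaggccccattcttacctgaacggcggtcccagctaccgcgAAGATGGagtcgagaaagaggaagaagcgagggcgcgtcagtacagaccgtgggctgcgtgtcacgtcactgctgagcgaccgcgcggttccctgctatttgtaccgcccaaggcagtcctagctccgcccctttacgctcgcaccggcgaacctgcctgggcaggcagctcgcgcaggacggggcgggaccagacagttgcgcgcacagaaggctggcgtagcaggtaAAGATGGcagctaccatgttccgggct
MRPL30: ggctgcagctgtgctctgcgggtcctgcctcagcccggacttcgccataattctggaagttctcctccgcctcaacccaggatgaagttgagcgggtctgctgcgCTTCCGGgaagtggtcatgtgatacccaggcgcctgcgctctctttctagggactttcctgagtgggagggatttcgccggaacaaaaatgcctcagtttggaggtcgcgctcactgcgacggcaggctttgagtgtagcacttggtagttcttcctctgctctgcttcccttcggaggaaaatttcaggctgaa

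The MRPS10 window holds CCGGAAG from position -22 and AAGATGG from position 10 relative to the transcript start, counted as 1 with no position 0. MRPL45 holds AAGATGG from position 14. The window shown for MRPL49, 1 of its 2 in the table, holds AAGATGG from positions -206 and 24, and MRPL30, which also fell, holds the complement of CCGGAAG from position -145. Neither motif was found in the windows of MRPL24, which rose, and MRPL44, which fell.

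The lower CR doses gave mostly rises as counted. At the medium dose 10 members rose and 1 fell, 14.1% of members against 23.2% of all genes (12.1% up, 11.1% down), with medians of 0.10 in the large and 0.13 in the small subunit. At the low dose 12 rose and 1 fell, 16.7% against 17.7% of all genes (8.51% up, 9.15% down), with medians of 0.16 and 0.17. Length-normalised, 9 rose and 7 fell at the medium dose, against 25.1% of all genes called (12.2% up, 12.9% down), and 8 of the 11 calls were kept. At the low dose 4 rose and 5 fell, against 14.7% of all genes called (6.94% up, 7.80% down), and 4 of the 13 calls were kept. The balance turned round once the length slope was a covariate, with 5 up and 13 down at the medium dose and 1 up and 9 down at the low dose. No share of all genes is given for that fit. MRPS10, MRPL2, MRPL24, MRPL52 and MRPL45 rose at all 3 doses against vehicle as counted, and MRPL49 fell at all 3. Against ZF at the same level of dose, only MRPS10 was called at all 3. MRPL45 and MRPL49 were called there at the high and medium doses, and MRPL2, MRPL24 and MRPL52 at none. In the length-normalised fit MRPL45 had a log2 fold change of 0.07 at the low dose (edgeR adjusted p = 0.221), and MRPL52 one of 0.16 (edgeR adjusted p = 0.0651).

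The largest rises at the low dose were those of MRPL23 (log2 fold change 0.48 ± 0.17), MRPL41 (0.44 ± 0.16), MRPL2 (0.40 ± 0.10), MRPL52 (0.36 ± 0.11) and MRPL24 (0.35 ± 0.10). MRPL23 and MRPL41 lost their calls with the length trend removed (edgeR adjusted p = 0.091 and 0.083), and MRPL41 also did so with the replicate number as a block (edgeR adjusted p = 0.0502). At the medium dose the largest rises were those of MRPL52 (0.32 ± 0.11), MRPS10, MRPL2 (0.32 ± 0.10), MRPL24 (0.31 ± 0.10) and MRPL58 (0.31 ± 0.10). The low dose count was 2 without CR low replicate 3, 3 without vehicle replicate 1, 4 without vehicle replicate 2 and 8 without CR low replicate 1. The medium dose count was 3 without CR medium replicate 1, 3 without vehicle replicate 1 and 5 without vehicle replicate 2.

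The doses of CR were compared with each other, which leaves the vehicle out. Between CR high and CR low 9 members fell and 0 rose, 8 of 49 in the large and 1 of 29 in the small subunit. That is 11.5% of members against 25.4% of all genes, 13.1% higher and 12.3% lower. The medians were -0.17 and -0.09, against 0.01 for all genes. Length-normalised, the split was 7 higher and 9 lower, the 9 being large subunit genes, against 28.8% of all genes called, 14.2% higher and 14.7% lower. Of the 9 calls as counted 5 were kept. The balance turned round once the length slope was a covariate, with 13 higher and 4 lower and no share of all genes given for that fit. The count was 3 without CR low replicate 3 and 5 without CR high replicate 1.

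MRPL43 measured 41.9, 36.4 and 39.7 CPM in CR high and 45.8, 49.4 and 52.3 CPM in CR low (log2 fold change -0.32 ± 0.09, edgeR adjusted p = 0.00368). Its libraries did not overlap. It overlaps TWNK, the mitochondrial DNA helicase gene, on the other strand. MRPL30 measured 58.5, 57.6 and 56.8 CPM in CR high and 67.8, 66.5 and 71.0 CPM in CR low (log2 fold change -0.25 ± 0.06, edgeR adjusted p = 0.000803). Both calls held in 13 of 13 alternatives.

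MRPL12, which besides its place in the stalk binds the mitochondrial RNA polymerase, measured 134, 138 and 132 CPM in CR high and 156, 157 and 186 CPM in CR low (log2 fold change -0.30 ± 0.11, edgeR adjusted p = 0.043). That call was lost without any 1 of the CR high libraries and without CR low replicate 3 (highest edgeR adjusted p = 0.262). MRPL44 and MRPL18 had log2 fold changes of -0.28 and -0.24, and MRPL18 did not pass the test with the length trend removed (edgeR adjusted p = 0.131). MRPL39, MRPL50, MRPS2 and MRPL49 were the other members that fell, with log2 fold changes of -0.23, -0.22, -0.17 and -0.11. MRPL58, MRPL10, MRPS7, MRPS12, MRPL41 and MRPL3 did not pass the test, with 0.07, 0.08, -0.12, -0.27, -0.17 and -0.07. The 7 that were higher in CR high in the length-normalised fit were MRPL58, MRPL45, MRPL34, MRPS15, MRPS10, MRPL24 and MRPL10, between 0.14 and 0.21 on the log2 scale.

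Neighbouring doses were closer. Between CR high and CR medium 0 members passed by edgeR and 0 by DESeq2, with 7 at an unadjusted p under 0.05 and 7.53% of all genes called. Between CR medium and CR low 0 passed by edgeR and 0 by DESeq2, with 1 at an unadjusted p under 0.05 and 3.10% of all genes called. Both shares of all genes are at an adjusted p under 0.05.

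**Figure D4:**
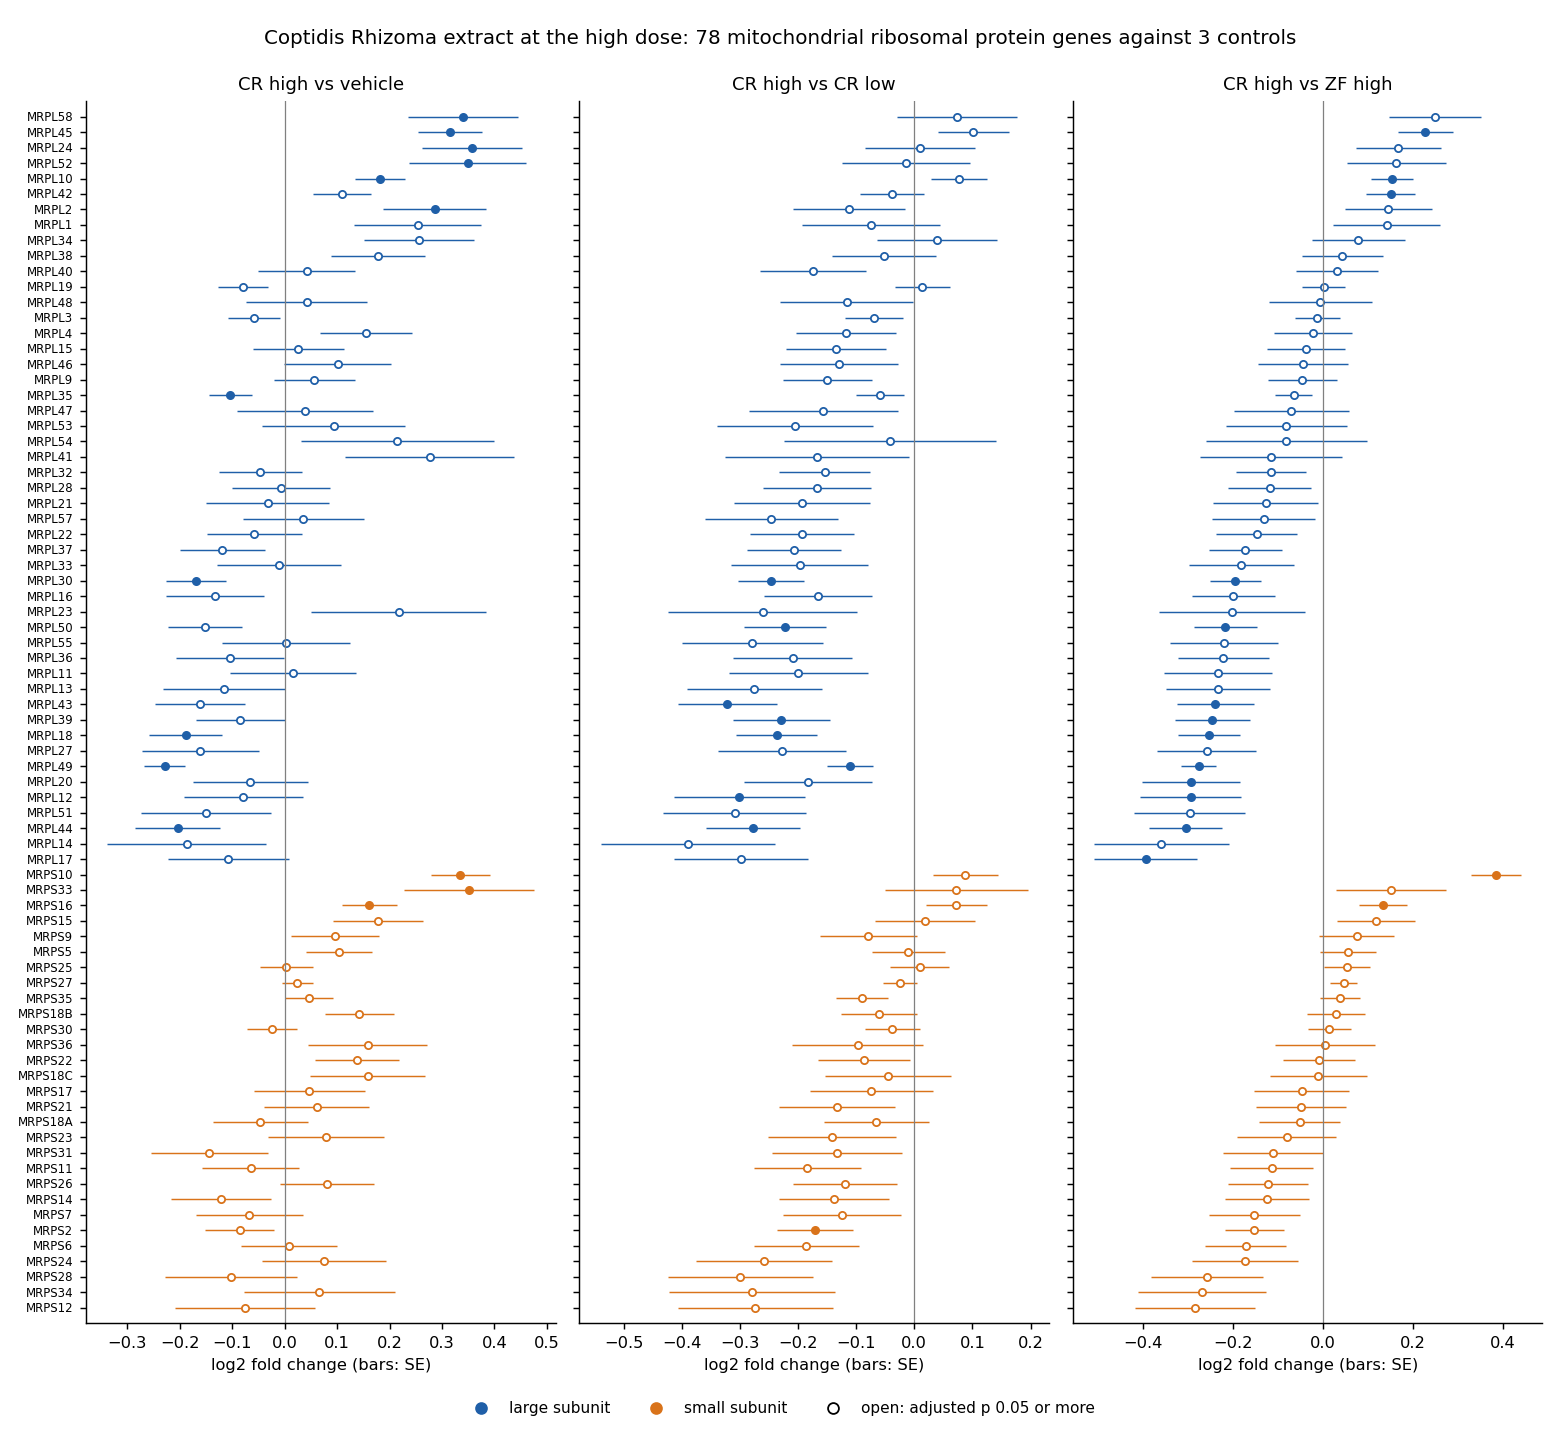
log2 fold change with its SE of the 78 members in CR high against vehicle, against CR low and against ZF high, large subunit genes in blue and small subunit genes in orange, filled where the adjusted p is under 0.05. MRPS10 stands highest against ZF high at 0.38. The genes called lower than in ZF high, from MRPL17 at -0.39 to MRPL30 at -0.20, are all large subunit genes. Of these, MRPL18, MRPL44, MRPL49 and MRPL30 were also called lower against vehicle.

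ZF served as a comparison whose libraries carry the same code number as CR. At the high dose 5 members were higher and 10 lower with CR than with ZF, 19.2% of members against 34.0% of all genes, 17.4% higher and 16.6% lower. The 10 lower ones were large subunit genes. The medians were -0.12 in the large and -0.05 in the small subunit. Length-normalised, 11 were higher and 22 lower, 18 of the 22 being large subunit genes, against 39.5% of all genes called, 19.3% higher and 20.3% lower. With the length slope as a covariate 16 were higher and 14 lower, again without a share of all genes beside them. The 2 extracts differ in dose at that level, 130 µg/mL of CR and 500 µg/mL of ZF.

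MRPS10 measured 65.8, 70.8 and 66.6 CPM in CR high against 51.4, 55.1 and 49.3 CPM in ZF high. The difference was 0.38 ± 0.06 on the log2 scale (edgeR adjusted p = 1.95e-07), and it was 0.37 ± 0.06 at the medium and 0.31 ± 0.06 at the low dose. MRPL49 measured 57.4, 60.4 and 59.8 CPM in CR high against 70.1, 72.3 and 72.5 CPM in ZF high (log2 fold change -0.28 ± 0.04, edgeR adjusted p = 1.11e-07). These 2 genes held their calls in 13 of 13 alternatives, and their libraries did not overlap. MRPL45 was higher by 0.23 ± 0.06 and held in 13 of 13 as well.

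The other higher members were MRPL10 (0.15 ± 0.05), MRPL42 (0.15 ± 0.06) and MRPS16 (0.13 ± 0.05), and MRPL10 lost its call in 5, MRPL42 in 7 and MRPS16 in 8 of 13 alternatives. The lower members were MRPL17 (-0.39 ± 0.11), MRPL44 (-0.30 ± 0.08), MRPL12 (-0.29 ± 0.11), MRPL20 (-0.29 ± 0.11), MRPL18, MRPL39, MRPL43, MRPL50 and MRPL30 besides MRPL49. Of the lower members MRPL18, MRPL44, MRPL49 and MRPL30 were also called lower in CR high against vehicle. Of the higher ones MRPS10, MRPL10, MRPS16 and MRPL45 were also called higher against vehicle. In ZF high against vehicle MRPL17, MRPL44, MRPL12 and MRPL20 had log2 fold changes of 0.29, 0.10, 0.21 and 0.23. None of these passed the test. Against ZF high MRPL12 and MRPL20 lost their calls without ZF high replicate 2 (edgeR adjusted p = 0.606 and 0.489). That ZF high library had the highest summed level of members, 5369.0 CPM against 4252.9 and 4251.6 CPM in the other libraries of that group. Without that library the balance turned round, with 10 members higher and 1 lower and no share of all genes given for that fit. The count was 8 without CR high replicate 2, 8 without CR high replicate 3 and 23 without ZF high replicate 3.

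At the medium dose 5 members were higher and 1 lower with CR than with ZF, 7.69% of members against 17.2% of all genes (8.79% higher, 8.44% lower), and length-normalised the split was 6 and 6 against 21.9% of all genes (11% higher, 10.9% lower). They were MRPS10, MRPL58, MRPL45, MRPS16 and MRPL10, with MRPL49 as the lower one. The count was 2 without CR medium replicate 1. At the low dose MRPS10 alone passed, higher with CR, against 5.11% of all genes (2.67% higher, 2.44% lower), and length-normalised 1 was higher and 2 lower against 7.58% (3.68% higher, 3.89% lower). The count was 2 without CR low replicate 2 and 2 without ZF low replicate 3. The change from the low to the high dose differed between CR and ZF for 2 members, MRPL30 and MRPL49, both with the negative sign, against 11.4% of all genes (5.76% positive, 5.67% negative). Length-normalised the count was 3 and 3, against 14.7% (6.97% positive, 7.78% negative), and with the length slope as a covariate it was 6 and 2. It was 1 without CR high replicate 3, 1 without CR low replicate 3, 4 without ZF high replicate 1, 0 without ZF high replicate 2 and 0 without ZF low replicate 2.

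In high-dose SR 4 members were higher and 7 lower than in vehicle, whose sample code also differs. That is 14.1% of members against 23.9% of all genes, 13% up and 10.9% down. MRPL19 had the smallest p, at -0.20 ± 0.05 on the log2 scale (edgeR adjusted p = 0.0013). MRPL45 rose by 0.25 ± 0.06, to 72.1, 65.5 and 72.2 CPM in SR high against 58.96, 57.8 and 60.5 CPM in vehicle. MRPL35 had a log2 fold change of -0.16 ± 0.04. Length-normalised, 4 rose and 23 fell, 11 of the 23 in the small subunit, against 28.7% of all genes called, 14.4% up and 14.4% down. Without SR high replicate 2 the split was 5 up and 4 down, and without the filter on low counts 7 up and 3 down. The count was 7 without SR high replicate 3.

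The 2 rRNAs were higher in every CR group. A rise of both was not particular to CR. In high-dose SR both were called higher against vehicle, at a median log2 fold change of 0.45. There 1 of 13 mitochondrial mRNAs rose and 0 fell, against 23.9% of all genes called. MT-RNR1, the rRNA of the small subunit, measured 34060, 32570 and 26770 CPM in CR low, 39580, 33760 and 35640 CPM in CR medium, and 21120, 23810 and 21960 CPM in CR high, with 1581, 1438 and 1581 CPM in vehicle. The log2 fold changes were 4.34 ± 0.10, 4.57 ± 0.10 and 3.86 ± 0.10 from the low to the high dose (edgeR adjusted p = 1.91e-34, 3.21e-35 and 6.94e-33). MT-RNR2, the rRNA of the large subunit, rose by 1.85 ± 0.08, 2.02 ± 0.08 and 1.04 ± 0.08 on the log2 scale. Against ZF at the same level of dose MT-RNR1 was higher by 4.27, 4.46 and 3.74 on the log2 scale from the low to the high dose. Each of these calls held in 13 of 13 alternatives. MT-RNR1 was singled out after its values were seen.

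The mRNAs translated by this ribosome split by dose and gene. At the high CR dose 12 of 13 mitochondrial mRNAs fell and 0 rose, with a median log2 fold change of -0.80. At the medium dose 3 rose and 10 fell at a median of -1.10, and at the low dose 4 rose and 6 fell at a median of -0.39. The shares of all tested genes called were 17.7%, 23.2% and 35.1% from the low to the high dose. MT-ND5 measured 19400 ± 4240 CPM in CR low, 6130 ± 1230 CPM in CR medium and 1930 ± 254 CPM in CR high, with 3440 ± 144 CPM in vehicle (SD, n = 3 each). MT-CYB averaged 16100 ± 1730, 11100 ± 1080 and 3070 ± 138 CPM in the same order, with 4730 ± 546 CPM in vehicle. Both were thus above vehicle at the low dose and below it at the high dose. MT-CO1 was below vehicle at each dose, with log2 fold changes of -0.83, -1.11 and -1.08 from the low to the high dose. Between CR high and CR low MT-ND5, MT-ND6, MT-CYB and MT-RNR2 had log2 fold changes of -3.33, -2.81, -2.39 and -0.81. With wortmannin 0 of 13 mRNAs passed by edgeR, at a median log2 fold change of -0.16, and MT-RNR1 and MT-RNR2 fell by 0.40 and 0.29. The libraries are described as mRNA libraries, and how the rRNAs entered them is not given.

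**Figure D5:**
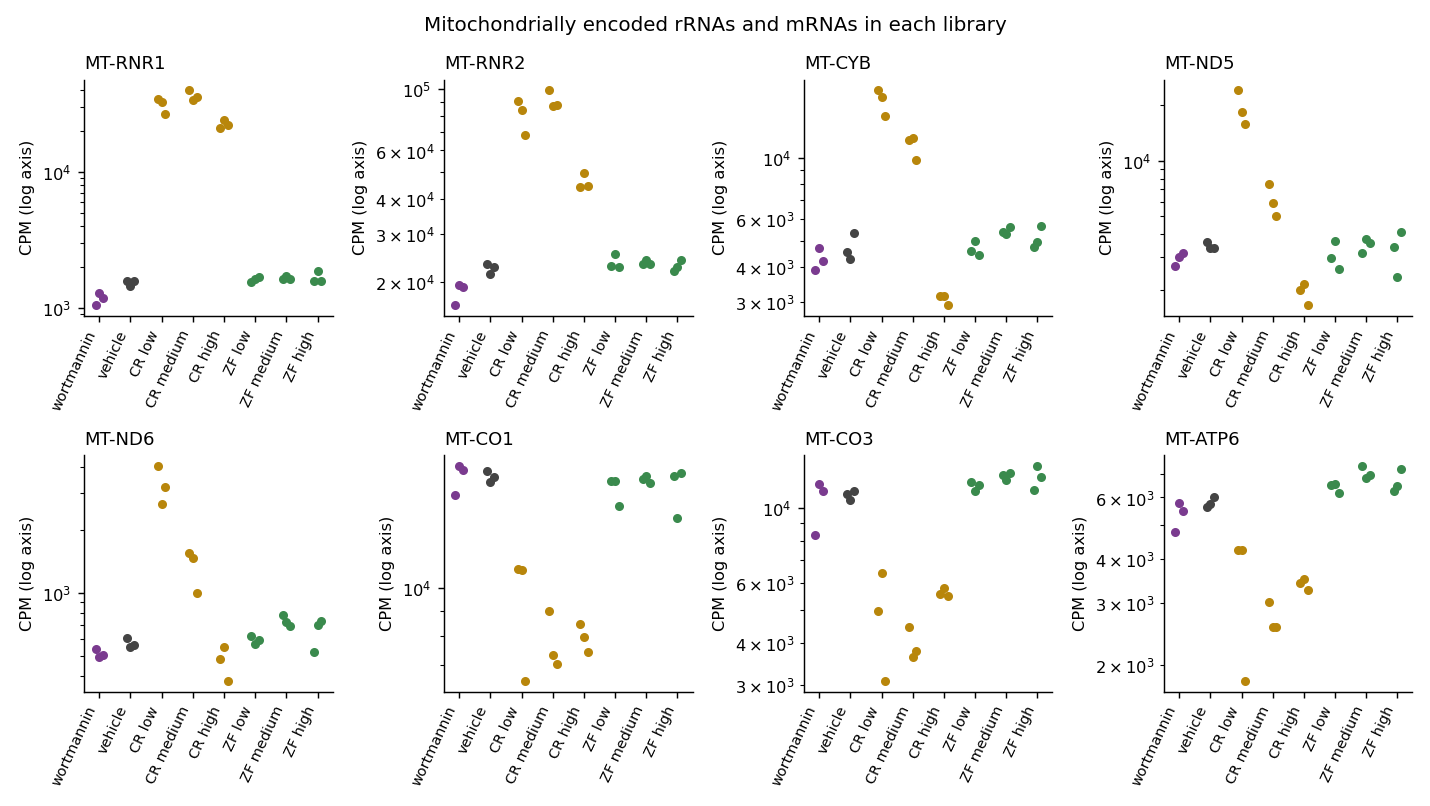
CPM (log axes) of the 2 mitochondrial rRNAs and 6 of the 13 mitochondrial mRNAs in each library. MT-RNR1 in the CR libraries lies at 21120 to 39580 CPM, far above the vehicle libraries, and MT-CYB, MT-ND5 and MT-ND6 are high at the low CR dose and below vehicle at the high dose.

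Nuclear genes that act beside the ribosome were read from lists, against 35.1% of all tested genes called in CR high (18.5% up, 16.7% down) and 25.3% with wortmannin (13.4% up, 11.9% down). Of 5 ribosomal proteins under other symbols 1 rose and 1 fell in CR high against vehicle. DAP3, a GTP-binding protein of the small subunit, rose by 0.30 ± 0.05, and PTCD3, a pentatricopeptide protein of the same subunit, fell by 0.19. Of 25 assembly factors 3 rose and 6 fell, a share close to that of all genes. NGRN and NSUN4 rose by 0.33 and 0.29 on the log2 scale, while FASTKD2 and MPV17L2, both needed for the large subunit, had log2 fold changes of -0.32 and -0.41. Of 18 translation factors 4 rose and 0 fell, led by the initiation factor MTIF2 at 0.40 ± 0.05 (edgeR adjusted p = 1.29e-09). MTIF2 was also higher in CR high than in CR low, by 0.30 ± 0.05. With wortmannin 10 of 25 assembly factors, 9 of 18 translation factors and 1 of 5 other ribosomal proteins fell, and 0 rose in these lists. Of 13 tested regulators 2 rose and 4 fell in CR high against vehicle. MYC rose by 0.46 and ESRRA by 0.29, and NRF1, PPARGC1B, POLRMT and MTERF1 fell by 0.33, 0.39, 0.26 and 0.26 on the log2 scale. With wortmannin 0 regulators rose and 5 fell, among them NRF1 by 0.33 and GABPB1, a subunit of the GABP complex, by 0.29.

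Between CR high and CR low the genes with the smallest p of these lists were, for assembly, MPV17L2, NGRN, RCC1L and NSUN4, with log2 fold changes of -0.46, 0.16, -0.21 and 0.18. For translation they were MTIF2, LRPPRC, TSFM and MTIF3, with 0.30, 0.16, -0.22 and -0.24, of which TSFM and MTIF3 did not pass the test. For the regulators they were MYC, POLRMT, NRF1 and ESRRA, with 0.21, -0.21, -0.29 and 0.19. None of the 5 other ribosomal proteins passed by edgeR, PTCD3 having the smallest p at a log2 fold change of -0.09, before DAP3, AURKAIP1 and CHCHD1.

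The cytosolic ribosome gave another picture at the same dose. Of 78 tested cytosolic ribosomal protein genes 51 rose and 0 fell in CR high against vehicle, with a median log2 fold change of 0.34, against 18.5% of all genes that rose, while 9 of the 78 mitochondrial ones rose and 5 fell. In the length-normalised fit 63 cytosolic genes rose and 1 fell at a median of 0.26, beside 11 and 20 of the mitochondrial ones at a median of -0.03. Against ZF high only 8 cytosolic genes were higher and 1 lower as counted, against 17.4% of all genes higher and 16.6% lower. Length-normalised, 49 cytosolic genes were higher and 1 lower, against 19.3% and 20.3% of all genes. The mitochondrial counts in that fit were 11 and 22, so the cytosolic count against ZF high depended on the fit. The difference between the 2 lists was not tested. In CR low 38 and in CR medium 49 cytosolic genes rose against vehicle as counted, and 0 fell. Of all genes 8.51% and 12.1% rose. Length-normalised, 22 and 46 cytosolic genes rose, against 6.94% and 12.2% of all genes. Between CR high and CR low 2 were higher and 1 lower as counted, against 13.1% and 12.3% of all genes. Length-normalised, 26 were higher and 1 lower, against 14.2% and 14.7%. Between these doses the cytosolic genes with the smallest p as counted were RPS26, RPL4, RPL12 and RPL10. Their log2 fold changes were -0.42, 0.19, 0.22 and 0.14, of which RPL10 did not pass the test.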

How the data were processed

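The RNA of A549 cells was sequenced as directional mRNA libraries with paired reads, per the labels' protocols, and FastQC 0.11.9, Trim Galore 0.6.5, STAR 2.7.3a, RSEM 1.3.3 and GRCh38 are named in the submitters' processing notes. Neither an annotation release nor a strand setting is given in the sources used here. The deposited table holds RSEM's expected counts per gene, made by the authors. It has 60 columns that match a label, and the other 209 sample columns were not used. Library totals ran from 17420400 to 36479600, and rows without a gene name held 0.0579% of counts. Expected counts were rounded to whole numbers. Smaller totals and lower levels give larger errors, which the standard errors carry.

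Genes passing edgeR's filterByExpr were fitted with edgeR 4.0.16 in R 4.3.3 (TMM scaling, quasi-likelihood test) over all 60 libraries and 20 groups, leaving 40 residual degrees of freedom. The biological coefficient of variation was 7.04%. Benjamini-Hochberg adjustment ran over all 17129 genes, and a call is an adjusted p under 0.05. The SE of a fold change was derived from the F statistic. CPM use TMM-scaled totals. The 27 comparisons include 19 that share the vehicle libraries.

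Transcript lengths and gene positions are those of GENCODE 29, the longest protein-coding transcript of a gene. For the length-normalised fit, a smooth trend of log2 CPM on log2 length was removed from each library as an offset. Other alternatives were DESeq2 1.42.0, its size factors, no filter, the replicate number as a block, the length slope as a covariate, each library left out, and, added after seeing the data, the fit without the 5 libraries with the lowest length slope. The code was tested on simulated counts.

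The members and lists were chosen with earlier results of these data known. Named are the 5 largest rises and falls among called members in the main CR comparisons, a panel by role, the 3 called members with the smallest p for wortmannin and the other high doses, the 3 highest and 3 lowest members per length, and the 4 genes with the smallest p of each list in CR high against CR low. Other named genes were chosen after their values were seen. No 2 libraries were identical. Replicates correlated at 0.976 or above, and counts of any replicate pair differed beyond sampling noise (chi-square at least 2.1 times its degrees of freedom).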

Additional observations from a re-analysis of the deposited data

Results flagged for a closer look

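The change from the low to the high dose differed between CR and ZF for 2 members. For MRPL30 the difference was -0.27 ± 0.08 on the log2 scale (SE, edgeR adjusted p = 0.0222), with -0.25 ± 0.06 for CR high against CR low and 0.02 ± 0.06 for ZF high against ZF low. It measured 58.5, 57.6 and 56.8 CPM in CR high, 67.8, 66.5 and 71.0 CPM in CR low, 65.6, 71.7 and 60.8 CPM in ZF high, and 67.4, 58.4 and 69.6 CPM in ZF low. For MRPL49 the difference was -0.17 ± 0.06 (edgeR adjusted p = 0.0404), with -0.11 ± 0.04 for CR and 0.06 ± 0.04 for ZF. Both are listed because the test of the difference itself passed. The call of MRPL30 was kept in 13 of 19 alternatives (adjusted p from 0.00587 to 0.178) and that of MRPL49 in 9 of 19 (adjusted p from 0.0197 to 0.524). ZF was given at higher doses than CR. Groups of 3 were not searched for outlying libraries.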

How the results depend on the processing

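No named gene that passed the test changed sign in the alternatives run. The share of all genes called is given for the main and length-normalised fits only, so the counts of other fits have no background. The balance of higher and lower calls did turn round. It did so once the length slope was a covariate for CR against vehicle at each dose, CR high against CR low, CR against ZF at the high and low doses and the difference in dose effect. Length-normalised it turned for CR high and CR low against vehicle and CR low against ZF low. It also turned for CR high against ZF high without the 5 libraries of lowest length slope or ZF high replicate 2, and for high-dose SR without the filter on low counts or SR high replicate 2. Without the filter on low counts the number of called members was 27 for CR low and 18 for CR medium against vehicle, 22 for CR high against CR low, 4 for CR high against CR medium, 2, 2 and 24 for CR low, medium and high against ZF at the same level, 8 for the difference in dose effect, and 2, 17 and 7 for high-dose ZRR, PT and ZF. Over the 10 medium and low doses of ZRR, ZR, PT, SR and ZF it summed to 80, and to 5 with DESeq2. With the length slope as a covariate it was 45 for wortmannin, 18 for CR medium, 36 for CR high, 32 for SR high and 2 each for ZRR high and ZR high against vehicle, 17 for CR high against CR low (13 higher, 4 lower), 2 for each pair of neighbouring CR doses, 7, 15 and 30 against ZF from the low to the high dose, 8 for the difference in dose effect and 1 over the 10 doses. The length-normalised fit gave 45 for wortmannin, 31 for CR high, 27 for SR high, 16 for CR high against CR low, 2 for CR high against CR medium, 3, 12 and 33 against ZF from the low to the high dose, and 6 for the difference in dose effect. Without the 5 libraries of lowest length slope, chosen after seeing the data, it was 42 for wortmannin, 26 for CR medium, 22 for CR high, 7 for CR high against CR medium, 10 for CR medium against ZF medium, 0 for the difference in dose effect and 53 over the 10 doses. The cause of these shifts was not tested. With each library left out in turn the count ran from 18 to 24 for wortmannin, 2 to 13 for CR low, 3 to 15 for CR medium, 6 to 12 for CR high, 3 to 13 for CR high against CR low, 1 to 2, 2 to 5 and 8 to 23 against ZF from the low to the high dose, 0 to 4 for the difference in dose effect, 7 to 9 for SR high and 0 to 1 over the 10 doses, and was 0 for neighbouring CR doses and for high-dose ZRR, ZR, PT and ZF. With MRPS30 and MRPS18A counted in the large subunit the ratio of large to small was 1.528 in CR high, 1.58 in CR low, 1.558 with wortmannin and 1.588 in vehicle. The length-normalised sum of all members was 3924.1 CPM with wortmannin and 4489.0 CPM in vehicle. With the replicate number as a block the count was 12 for CR low and 10 for CR medium, and among the named genes it ended the call of MRPL41 in CR low. Same-numbered libraries did not deviate together (mean correlation -0.00472, and 18 of 60 libraries correlated best with their own number), so the numbers were not treated as pairs. Estimated counts of 17420400 to 36479600 per library and 3 libraries a group limit what a test of a single member can show.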
